A study of Mus musculus with 48 samples.

Results

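The S100 family was followed through 7 of its genes, S100b, S100a1, S100a4, S100a6, S100a10, S100a11 and S100a13, in 3 sorted populations of the early mouse limb skeleton. All 7 were found by symbol among 55487 listed genes, and all 7 were among the 17494 genes that passed the filter on low counts. The limbs were taken at postnatal day 3 from C57BL/6 animals and their cells had been sorted as skeletal stem cells (SSC), as progenitors of bone, cartilage and stroma (BCSP), and as the precursors of that population (pBCSP). The KO mice were Ptipf/f;Col2a1-cre, with floxed Ptip alleles and Cre driven by the gene of the main cartilage collagen. The WT mice were Ptipf/f, with the same floxed alleles and no Cre, so an effect of Cre itself and of losing Ptip cannot be told apart. RNA was read in 2 libraries for each genotype of each population. For chromatin there were 24 peak lists, with 1 library per group for H3K4me3 and for H3K4me1 and 2 per group for H3K27ac. The 7 genes were chosen with their RNA values known, so their levels and differences are a description and carry no test.

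S100 proteins are small calcium sensors of the EF-hand type that mostly act as dimers and bind partner proteins inside the cell, while some are also released and bind surface receptors. S100b and S100a1 are made by cartilage cells and are known targets of Sox5, Sox6 and Sox9 there, and S100b is also a common marker of Schwann cells. S100a4 and S100a6 are typical of fibroblasts and other mesenchymal cells. S100a10 and S100a11 pair with annexins at membranes, and S100a13 takes part in the release of the growth factor Fgf1 by a route outside the classical secretory pathway.

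In KO cells the family split by gene. S100b and S100a1 were higher than in WT in every population, S100a4 and S100a6 were lower in every population, S100a13 differed little, and S100a10 and S100a11 were low in the second KO library of each population only. Averaged over the populations, the KO minus WT difference was 1.84 ± 0.27 log2 (3.58-fold) for S100b and 1.25 ± 0.27 (2.38-fold) for S100a1, each with its SE over 6 libraries per genotype. The SEs given here treat the libraries as independent. Same-numbered libraries of 1 genotype deviated together between populations (correlations of 0.22 to 0.44), so the SEs may be too small. For S100a6 the average was -1.91 ± 0.43 log2 (3.76-fold lower in KO), and for S100a4 -2.53 ± 0.70. Without SSC KO replicate 2, a library that stood apart from the rest, these averages were 1.77 for S100b, 1.09 for S100a1, -1.70 for S100a6 and -2.20 for S100a4.

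S100b lies alone on chromosome 10, between 76253836 and 76261319 on the plus strand of GRCm38.p6, and the other 6 genes lie on chromosome 3. S100a1 (90511034 to 90514330, minus strand) and S100a13 (90514233 to 90524581, plus strand) have annotated intervals that overlap by 98 bases. The S100a13 start used here, for its start region and its peaks, was 90514435, which lies inside its interval. From that start the genes begin 105 bases apart and are read away from each other. Whether counting used strand is not stated, so reads in that overlap cannot be assigned to either gene. S100a4 (90603770 to 90606045) and S100a6 (90612894 to 90614414) follow each other on the plus strand with 9124 bases between their starts. S100a11 (93520496 to 93526288, plus strand) is separated from S100a10 (93555117 to 93564645) by 28829 bases. A pseudogene of S100a11 is also listed, so reads of S100a11 may have been shared with it to an unknown extent.

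Start regions are printed for the genes whose levels separated KO from WT and for S100a11, whose start region held the most matches to the searched motifs. Each runs from 250 bases before to 50 after the gene start and is given 5′ to 3′ on the gene's own strand, from RefSeq on GRCm38.p6, where 6 of the 7 genes matched an entry. Capitals mark matches on either strand to TATAAA (the letters of the TATA box, in 13.6% of 32851 start regions of the same length), GGGCGG (a GC box, 35.7%), TGANTCA (AP-1, 7.81%), AACAAT (10.7%) and ACAAAG (18.7%), the last pair being core letters bound by Sox proteins. A match describes letters and is not a shown binding site.
S100b, chr10:76253586-76253885, plus strand: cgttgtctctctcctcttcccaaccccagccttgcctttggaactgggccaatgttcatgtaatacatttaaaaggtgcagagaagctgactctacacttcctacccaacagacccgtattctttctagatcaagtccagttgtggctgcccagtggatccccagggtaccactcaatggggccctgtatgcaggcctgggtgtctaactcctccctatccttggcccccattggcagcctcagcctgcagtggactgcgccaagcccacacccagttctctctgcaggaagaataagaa
S100a1, chr3:90514281-90514580, minus strand: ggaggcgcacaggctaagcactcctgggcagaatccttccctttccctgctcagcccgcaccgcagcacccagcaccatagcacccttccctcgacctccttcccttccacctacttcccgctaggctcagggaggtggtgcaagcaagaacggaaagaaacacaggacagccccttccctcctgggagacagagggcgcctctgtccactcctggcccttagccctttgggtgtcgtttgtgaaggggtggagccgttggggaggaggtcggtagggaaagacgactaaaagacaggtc
S100a4, chr3:90603520-90603819, plus strand: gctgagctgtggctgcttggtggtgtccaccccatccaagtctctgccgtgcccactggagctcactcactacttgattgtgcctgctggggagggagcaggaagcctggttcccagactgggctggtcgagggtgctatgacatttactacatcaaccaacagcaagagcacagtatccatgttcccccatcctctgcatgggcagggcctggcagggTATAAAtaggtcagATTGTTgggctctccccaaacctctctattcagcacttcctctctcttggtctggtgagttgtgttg
S100a6, chr3:90612644-90612943, plus strand: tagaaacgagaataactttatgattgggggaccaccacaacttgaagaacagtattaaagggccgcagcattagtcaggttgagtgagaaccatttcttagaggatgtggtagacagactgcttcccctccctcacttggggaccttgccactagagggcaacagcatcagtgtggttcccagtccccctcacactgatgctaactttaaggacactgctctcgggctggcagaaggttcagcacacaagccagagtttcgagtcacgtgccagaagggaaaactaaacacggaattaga
S100a11, chr3:93520246-93520545, plus strand: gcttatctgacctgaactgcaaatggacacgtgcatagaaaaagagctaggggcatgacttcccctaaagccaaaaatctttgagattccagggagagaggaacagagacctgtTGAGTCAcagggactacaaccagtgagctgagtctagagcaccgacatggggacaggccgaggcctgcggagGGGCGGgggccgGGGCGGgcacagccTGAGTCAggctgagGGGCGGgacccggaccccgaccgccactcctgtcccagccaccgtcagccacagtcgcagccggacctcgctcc

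The S100a4 region held the TATA box letters from 31 to 26 bases before the start and the AACAAT letters, on the minus strand, from 17 to 12 bases before it. In S100a11 there were 3 GC boxes and 2 AP-1 matches, and none of the 5 motifs was found in S100b, S100a1, S100a6 or S100a13. The S100a13 region shares 204 of its 300 bases with that of S100a1, read on the other strand, and is not printed. CpG dinucleotides numbered 15 in S100a11, 14 in S100a13, 11 in S100a1, 6 in S100a6, 3 in S100b and 2 in S100a4, with a median of 7 over all start regions.

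RNA libraries held 15495915 to 22670899 counts, and levels are given as CPM, a gene's share of the library's counts on the usual scale, after library sizes were scaled with edgeR's TMM factors. Paxip1, the current symbol of Ptip, had 0 to 3.48 CPM in KO libraries and 7.25 to 14.6 CPM in WT libraries, and fell by 4.52 ± 0.76 log2 on average (edgeR adjusted p = 0.0396, below the WT mean in 6 of 6). That call ended without any 1 of 9 libraries (the 6 WT libraries, both pBCSP KO libraries and BCSP KO replicate 2; adjusted p from 0.0714 to 0.194), with pBCSP and BCSP only (0.064) and with counts summed over populations (0.591). SSC KO replicate 2 stood apart, with a read in 13987 genes against 20965 to 23831 in the other 11 libraries. Of the surface markers of the sort, Cd200 was highest in SSC (224 and 303 CPM in KO, 289 and 198 in WT) and lowest in pBCSP (13.2 and 22.0 in KO, 27.7 and 25.7 in WT), and Eng, which encodes CD105, was highest in BCSP (85.2 and 72.8 in KO, 168 and 127 in WT). Itgav, whose product the sort selects for, had 16.5 to 64.4 CPM in KO and 59.9 to 71.7 CPM in WT. Of the genes of proteins it selects against, Thy1 and Ptprc were at or below 0.579 CPM in every library, Tek (Tie2) had 0 to 4.16 CPM in KO and 0.461 to 10.6 CPM in WT, highest in BCSP WT, and Enpep (6C3) had 0 to 4.16 CPM in KO and 1.61 to 7.40 CPM in WT. The labels do not state whether replicates are separate animals, and p-values then reflect no more than the scatter of these libraries, which may be technical. In bulk samples, fewer cells of a type and less RNA per cell cannot be told apart.

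S100b, the astrocyte, Schwann and cartilage S100 protein, had 131 and 168 CPM in SSC KO libraries, against 75.2 and 43.6 CPM in SSC WT libraries. In pBCSP it had 142 and 200 CPM in KO and 59.2 and 38.8 CPM in WT. BCSP gave 106 and 251 CPM in KO and 39.2 and 28.7 CPM in WT. Every KO library lay above every WT library, and the difference was 1.33 ± 0.46 log2 in SSC, 1.80 ± 0.47 in pBCSP and 2.39 ± 0.47 in BCSP (2 libraries per group). The F test across all genes for a KO effect that differs between populations called 0 of 17494 genes (0%; 240 at an unadjusted p under 0.05, and 2 called by DESeq2), so the order of the 3 differences stands as a description.

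S100a1, a regulator of calcium pumps and channels in muscle that cartilage also makes, had 137 and 246 CPM in SSC KO libraries and 125 and 69.0 CPM in SSC WT libraries. In pBCSP the levels were 191 and 170 CPM in KO and 115 and 64.6 CPM in WT. In BCSP they were 118 and 209 CPM in KO and 56.0 and 39.1 CPM in WT. Within each population both KO libraries exceeded both WT libraries, although over all populations the lowest KO library (118 CPM, BCSP) fell below the highest WT library (125 CPM, SSC). The differences were 0.98 ± 0.46 log2 in SSC, 1.01 ± 0.46 in pBCSP and 1.78 ± 0.47 in BCSP. Their profiles over the 12 libraries were alike: the root mean square difference between the log2 CPM of S100b and S100a1, each centred on its own mean, was 0.37, below every other pair of members but S100a10 and S100a11.

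S100a13, which shares its start region with S100a1, did not show that difference. It had 34.0 and 41.2 CPM in SSC KO and 39.1 and 28.4 CPM in SSC WT, 39.6 and 26.5 CPM in pBCSP KO and 27.5 and 26.7 CPM in pBCSP WT, and 36.8 and 27.2 CPM in BCSP KO and 27.5 and 23.2 CPM in BCSP WT. KO and WT overlapped in each population, with 5 of 6 KO libraries above the WT mean of their population and an average difference of 0.26 ± 0.19 log2. The ratio of S100a1 to S100a13 counts within a library ran from 3.19 to 7.67 in KO and from 1.69 to 4.18 in WT. Without exon lengths this ratio says nothing on which of the 2 genes is more abundant.

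**Figure D1:**
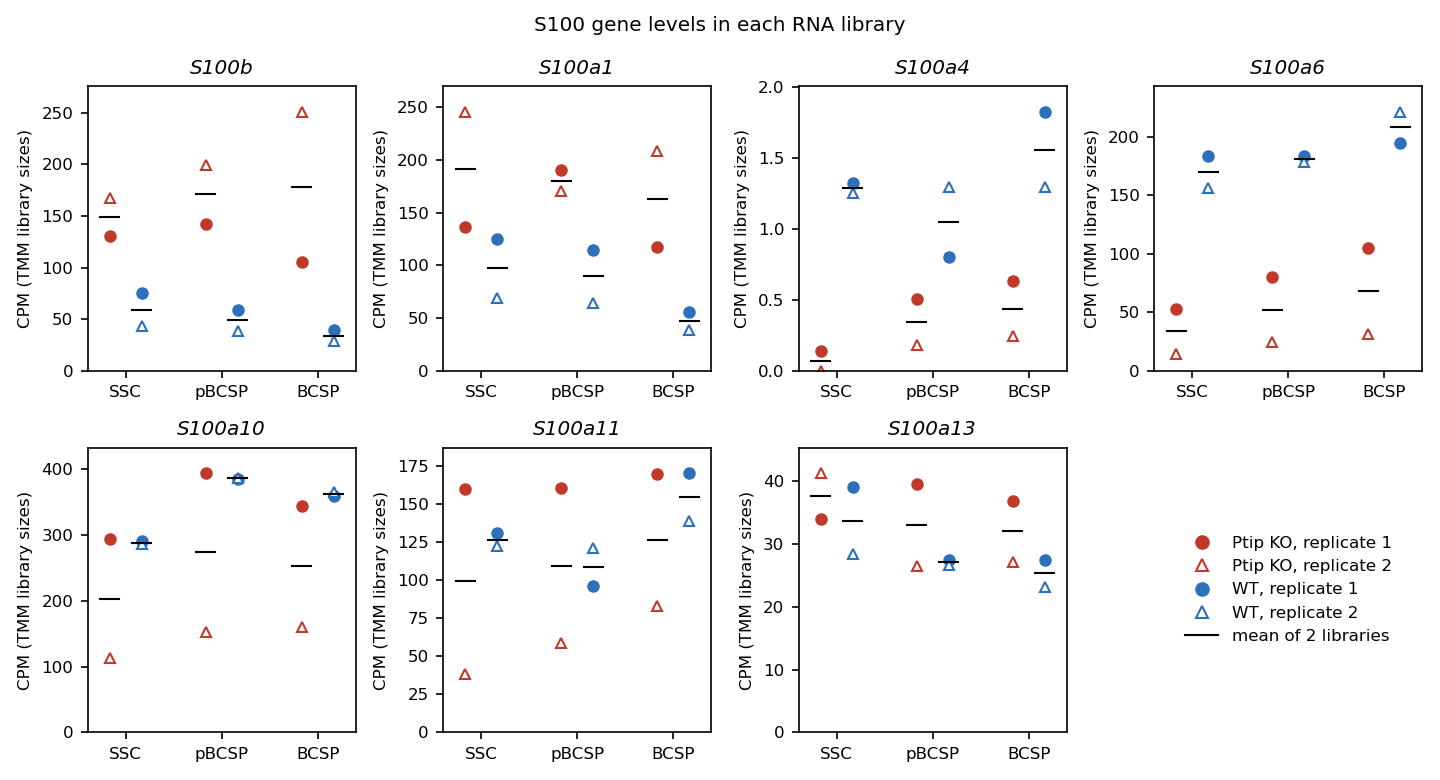
Level of each of the 7 S100 genes in CPM (y axis, linear from 0, own scale per gene) in SSC, pBCSP and BCSP, with KO libraries (red) left of WT libraries (blue), circles for replicate 1, open triangles for replicate 2 and a line at the mean of 2 libraries. S100b runs from 106 to 251 CPM in KO and from 28.7 to 75.2 CPM in WT, and S100a6 from 14.6 to 105 CPM in KO and from 156 to 221 CPM in WT.

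S100a6, also called calcyclin and typical of dividing mesenchymal cells, had 53.1 and 14.6 CPM in SSC KO libraries and 184 and 156 CPM in SSC WT libraries. In pBCSP it had 80.1 and 24.6 CPM in KO and 184 and 179 CPM in WT. In BCSP it had 105 and 31.2 CPM in KO and 195 and 221 CPM in WT. Each KO library was below each WT library, and within both replicate numbers the KO level was lowest in SSC and highest in BCSP. The differences were -2.33 ± 0.76 log2 in SSC, -1.79 ± 0.74 in pBCSP and -1.61 ± 0.74 in BCSP. Replicate 2 was the lower KO library each time, by 1.86 log2 in SSC, 1.70 in pBCSP and 1.75 in BCSP, yet KO replicate 1 alone still lay below WT (average -1.28 ± 0.14 with the first KO libraries only, a setting chosen after seeing the data in which a lone library is assumed to vary like the other groups).

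S100a4, known as fibroblast-specific protein and a binder of non-muscle myosin, was close to the detection limit. It had 2 and 0 counts in SSC KO (0.139 and 0 CPM) and 23 and 21 counts in SSC WT (1.33 and 1.25 CPM). The level was 0.505 and 0.181 CPM in pBCSP KO and 0.801 and 1.30 CPM in pBCSP WT. BCSP gave 0.632 and 0.243 CPM in KO and 1.82 and 1.29 CPM in WT. Every KO library lay below every WT library, and the count of 0 allows up to 0.166 CPM, counting error only. The gene passed the filter through WT, with 6 WT libraries and 1 KO library over the filter's 0.553 CPM. The fitted average of -2.53 ± 0.70 log2 includes SSC, where the KO libraries hold 2 and 0 counts, and was -1.72 ± 0.64 with pBCSP and BCSP only.

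**Figure D2:**
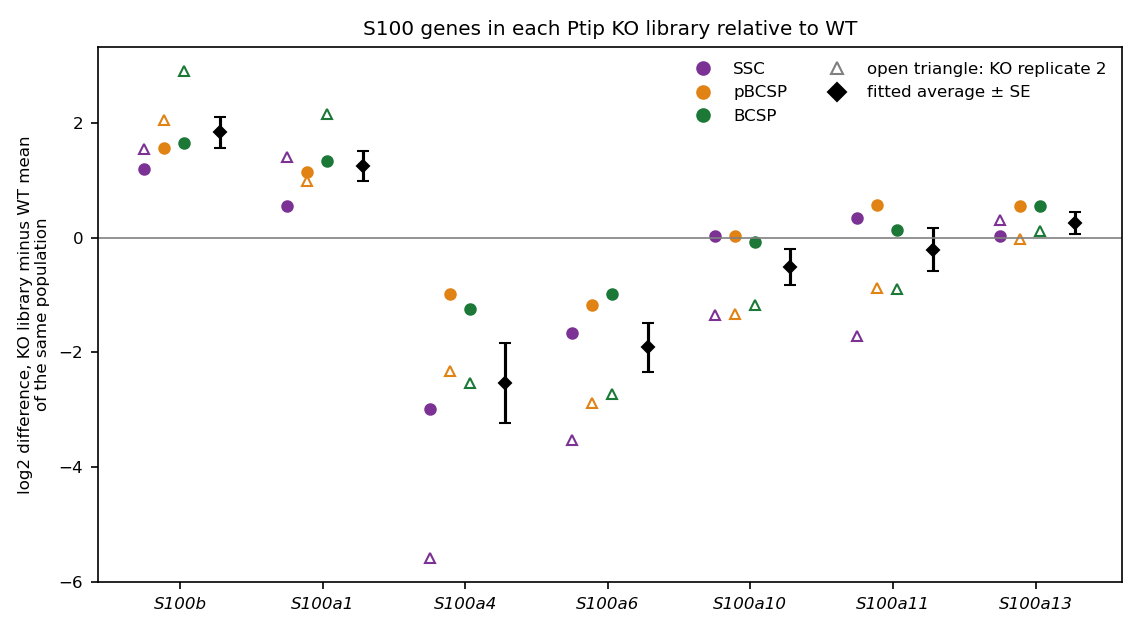
Log2 difference of each KO library from the WT mean of the same population (y axis) for the 7 genes, coloured by population, with open triangles for KO replicate 2 and black diamonds for the fitted average ± SE. S100b and S100a1 are above 0 and S100a4 and S100a6 below 0 in 6 of 6 KO libraries, and for S100a10 and S100a11 the 3 open triangles lie below the 3 filled circles.

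S100a10, the calcium-independent partner of annexin A2, had 293 and 113 CPM in SSC KO libraries and 291 and 286 CPM in SSC WT libraries. In pBCSP it had 393 and 153 CPM in KO and 385 and 387 CPM in WT. In BCSP it had 344 and 160 CPM in KO and 359 and 365 CPM in WT. The first KO library of each population was at the WT level and the second was well below it, while the WT replicates almost coincided. The average difference of -0.51 ± 0.31 log2 was -0.0050 ± 0.12 with the first KO libraries only.

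S100a11, a partner of annexin A1, showed the same split between KO replicates. It had 160 and 38.5 CPM in SSC KO and 131 and 122 CPM in SSC WT, 161 and 58.5 CPM in pBCSP KO and 96.3 and 121 CPM in pBCSP WT, and 170 and 83.1 CPM in BCSP KO and 170 and 139 CPM in BCSP WT. The 3 KO libraries of replicate 1 were above the WT mean of their population, and the 3 of replicate 2 were below it. The average of -0.21 ± 0.38 log2 became 0.02 ± 0.29 without SSC KO replicate 2 and 0.35 ± 0.14 with the first KO libraries only. The root mean square difference between the centred profiles of S100a10 and S100a11 was 0.31 log2, the smallest among the members.

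The gap between the KO replicates was not limited to these genes. Over all 17494 genes the median absolute difference between replicates was 1.48 log2 in SSC, 0.70 in pBCSP and 0.66 in BCSP for KO, and 0.45, 0.41 and 0.36 for WT. For S100a10 and S100a11, KO replicate 1 exceeded replicate 2 by 1.03 to 2.06 log2 in the 3 populations. S100b ran the other way, with replicate 1 lower by 0.36, 0.49 and 1.25 log2. The ratio of S100a6 to S100a10 counts within a library was 0.129 to 0.304 in KO libraries and 0.462 to 0.632 in WT libraries. S100a6 alone already separated the genotypes, and both genes were chosen with their values known. The ratio is therefore a description and carries no test of the replicate gap.

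In the fit across all genes 1 of the 7 members, S100b, passed an adjusted p under 0.05 on the average over populations, beside 205 of 17494 genes (1.17%), 169 higher (0.966%) and 36 lower (0.206%). On unscaled total counts that split was 107 higher and 44 lower. The members' median difference was -0.21 log2 and that of all genes -0.09. In single populations 0 of 17494 genes passed in edgeR (0%), with 1643 in SSC, 1096 in pBCSP and 1095 in BCSP at an unadjusted p under 0.05, while DESeq2 called 143, 78 and 98. All 6 KO libraries lay above all 6 WT libraries for 1 member (3.08% of genes) and below for 2 members (1.98%). Within populations both KO libraries were above both WT libraries for 2 members in SSC (13.7% of genes), 2 in pBCSP (21.3%) and 2 in BCSP (24.2%), and below for 2 in SSC (25.8%), 2 in pBCSP (24%) and 3 in BCSP (26.4%). Since the members were chosen on these contrasts, nothing is read from these counts. The count of called members was 4 in DESeq2, 4 after leaving out SSC KO replicate 1, 3 after leaving out BCSP KO replicate 1, and 0 after leaving out any 1 of the WT libraries, either pBCSP KO library or BCSP KO replicate 2. Over all genes those last omissions left 0 calls, or 29 for pBCSP KO replicate 1, so the calls on the average given here depend on these libraries. It was also 0 when the 3 same-numbered libraries of each genotype were summed, where 0 genes in all passed (1505 at an unadjusted p under 0.05). S100b itself kept a difference of 1.58 to 2.00 log2 whichever single library was left out.

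Between the populations of WT cells, S100a1 had 56.0 and 39.1 CPM in BCSP, below both pBCSP (115 and 64.6 CPM) and SSC (125 and 69.0 CPM), a BCSP minus SSC difference of -1.03 ± 0.46 log2. S100b ran in the same order, at -0.81 ± 0.45 for BCSP minus SSC, with neighbouring populations that overlapped between BCSP and pBCSP and between pBCSP and SSC. S100a6 and S100a11 were highest in BCSP and S100a13 in SSC, with small BCSP minus SSC differences of 0.29 ± 0.72 log2 for S100a6, 0.29 ± 0.65 for S100a11 and -0.41 ± 0.33 for S100a13. S100a10 had 291 and 286 CPM in SSC, 385 and 387 in pBCSP and 359 and 365 in BCSP, with no overlap, although the fitted differences (0.42 ± 0.55 for pBCSP minus SSC) were within their SE. S100a4 overlapped between all populations. Both pBCSP libraries were above both SSC libraries for 1 member (18.8% of genes) and below for 2 (17.1%), both BCSP libraries were above both pBCSP libraries for 2 (22.3%) and below for 2 (23.1%), and both BCSP libraries were above both SSC libraries for 3 (20.8%) and below for 3 (22.6%). No gene of 17494 passed in any comparison of WT populations (0%), with 330, 458 and 608 at an unadjusted p under 0.05 for pBCSP minus SSC, BCSP minus pBCSP and BCSP minus SSC, and DESeq2 called 36, 23 and 65.

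Of 15 chondrocyte genes 10 rose in KO and 0 fell on average in edgeR (median 1.32 log2), beside 169 higher of all 17494 genes (0.966%). These calls depend on single libraries, as given above, and 0 of the 15 passed in any single population. Of the 15 estimates 14 were positive and 1 was negative. The summed level of the 15 genes was 77632 to 128970 CPM in KO and 39924 to 111170 CPM in WT. Much of that sum came from Col2a1, whose KO and WT libraries overlapped in each population. It had 37783 and 23645 CPM in SSC KO and 58089 and 36491 CPM in SSC WT. In pBCSP it had 42315 and 29157 CPM in KO and 30700 and 28148 CPM in WT. In BCSP it had 23098 and 34072 CPM in KO and 30766 and 21136 CPM in WT. Of 10 Schwann cell genes 0 passed, all 10 estimates were negative (median -2.16 log2), and the sum was 23.8 to 667 CPM in KO and 124 to 2205 CPM in WT, with Sox10, the defining factor of that lineage, at 0 to 8.87 CPM in KO and 1.40 to 51.4 CPM in WT. The Schwann sum was 27.3, 23.8 and 35.2 CPM in KO replicate 2 of SSC, pBCSP and BCSP, whereas KO replicate 1 lay between the WT libraries in pBCSP (152 CPM in KO, 124 and 168 CPM in WT) and BCSP (517 CPM in KO, 378 and 960 CPM in WT) and below them in SSC (667 CPM in KO, 1551 and 2205 CPM in WT). Of 6 tendon and fibroblast genes 0 passed and all 6 estimates were negative (median -1.36), with sums of 81.3 to 933 CPM in KO and 174 to 1999 CPM in WT. The part of these cell types in the S100 levels was not tested.

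Among the transcription factors known to drive S100b and S100a1 in cartilage, Sox5 rose by 1.07 ± 0.21 log2 in KO (edgeR adjusted p = 0.0495, with 6 of 6 KO libraries over their WT mean). It had 228 and 411 CPM in SSC KO and 155 and 141 CPM in SSC WT, and the corresponding pairs were 263 and 340 CPM in pBCSP KO with 206 and 174 CPM in pBCSP WT, and 166 and 297 CPM in BCSP KO with 92.2 and 79.7 CPM in BCSP WT. Sox6 differed by 0.76 ± 0.17 (adjusted p = 0.0727) and Sox9, the master regulator of cartilage, by 0.51 ± 0.22 (adjusted p = 0.24), both above the WT mean in 6 of 6 and neither past the threshold. The Sox5 call was lost without any 1 of 10 libraries (all but SSC KO replicate 1 and BCSP KO replicate 1; adjusted p from 0.0529 to 0.218). It was also lost with RLE scaling (adjusted p = 0.0524), unscaled totals (0.0671), the replicate number as a block (0.0595), pBCSP and BCSP only (0.0849) and counts summed over populations (0.591). The Sox genes were chosen with earlier results of these data known. Their part in the S100b and S100a1 levels was not tested, nor was it set apart from a change in the share of cartilage cells.

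Among genes of proteins that S100 members bind, 26 were listed, 24 were tested, 1 rose and 0 fell, with 8 positive and 16 negative estimates and a median of -0.23 log2 beside -0.09 for all genes. The one called was Bsg (basigin), a surface glycoprotein that binds S100a9 and monocarboxylate transporters, at 1.21 ± 0.24 log2 (edgeR adjusted p = 0.0499, above the WT mean in 6 of 6), a call lost without any 1 of 9 libraries (the 6 WT libraries, both pBCSP KO libraries and BCSP KO replicate 2; adjusted p from 0.076 to 0.209). The Bsg call also ended with RLE scaling (adjusted p = 0.0525), unscaled totals (0.0666), pBCSP and BCSP only (0.0904) and counts summed over populations (0.591). Anxa2, the partner of S100a10, had 1614 and 624 CPM in SSC KO and 1551 and 1464 CPM in SSC WT, and its average difference was -0.33 ± 0.27 log2 (adjusted p = 0.527). In pBCSP it had 1810 and 952 CPM in KO and 1587 and 1774 CPM in WT, and in BCSP 1711 and 1097 CPM in KO and 1582 and 1789 CPM in WT, so the second KO library was again the low one. Anxa1, the partner of S100a11, differed by -0.77 ± 0.49 log2 (adjusted p = 0.411), with 418 and 80.6 CPM in SSC KO and 373 and 284 CPM in SSC WT. The receptor gene Ager, named after its values were seen, was at 0 to 1.89 CPM in KO and 0.846 to 3.10 CPM in WT.

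Of the 10 other S100 genes looked for, 6 passed the filter and edgeR called 0, with 1 at an unadjusted p under 0.05 (S100a5), which DESeq2 called. S100a16 had 33.2 to 80.5 CPM in KO and 60.2 to 86.8 CPM in WT (-0.21 ± 0.23 log2, adjusted p = 0.647). S100a3 had 0.487 to 3.74 CPM in KO and 1.67 to 2.77 CPM in WT (-0.15 ± 0.56, adjusted p = 0.907). S100a5, named after its values were seen, had 0, 0, 1, 0, 2 and 0 counts in the KO libraries and 23, 15, 29, 14, 6 and 3 counts in the WT libraries, and passed the filter through WT. Its adjusted p was 0.0656 in edgeR and 0.000547 in DESeq2, and in edgeR it was 0.00472 with no filter, 0.011 without SSC KO replicate 1 and 0.0542 to 0.591 under the other alternatives. S100a14, S100g, S100z and S100a7l2 did not pass the filter, with at most 0.27 CPM in any library.

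**Figure D3:**
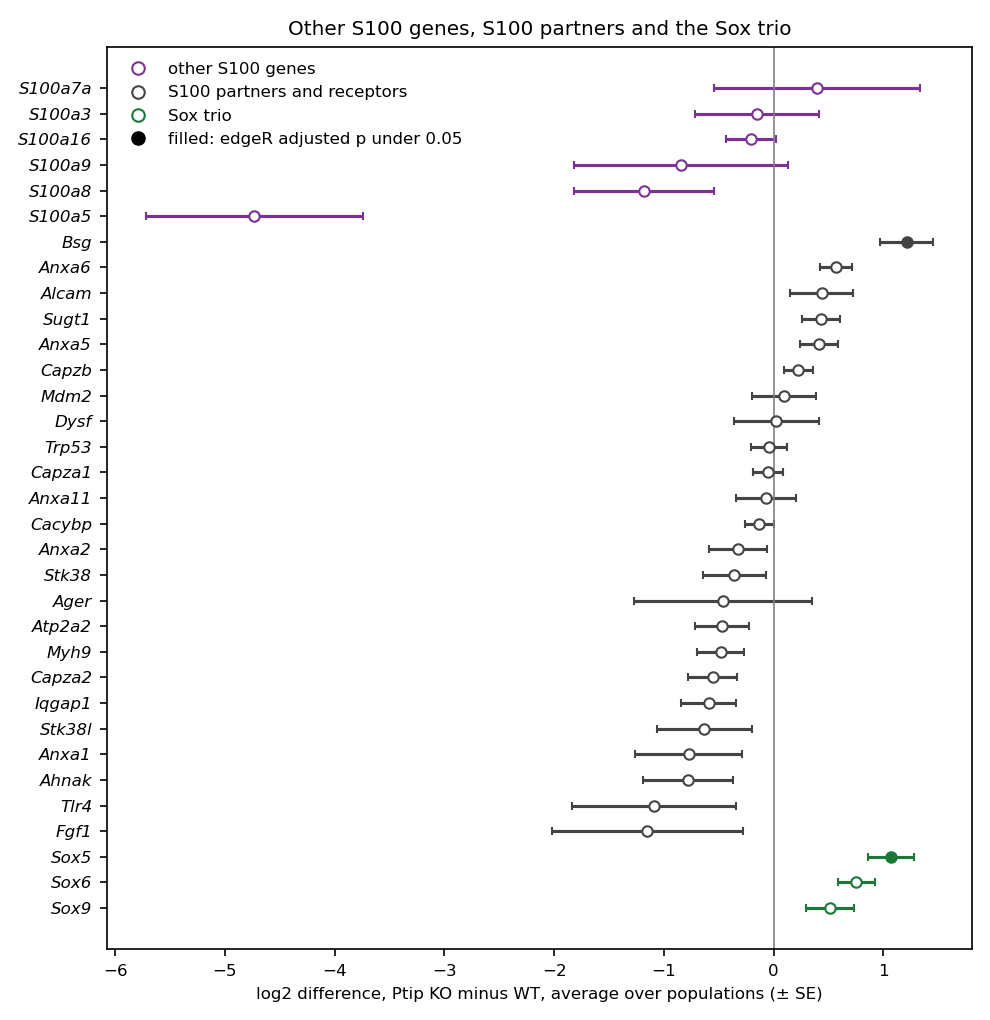
Average KO minus WT log2 difference ± SE (x axis) of the 6 tested other S100 genes, the 24 tested partners and receptors and the 3 Sox genes, filled where edgeR's adjusted p was under 0.05. Bsg at 1.21 and Sox5 at 1.07 are the filled points, and 16 of the 24 partners lie left of 0.

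Some genes with a mean of at least 10 CPM, 8373 in all, followed single members closely over the 12 libraries. The 3 nearest to S100b by root mean square difference of centred log2 CPM were the glycolytic enolase Eno1 (0.21), the membrane protein gene Tmem98 (0.22) and Susd5 (0.27), where the median gene was at 1.12. For S100a1 they were Fgfrl1, an FGF receptor without kinase (0.17), Cnmd, the cartilage glycoprotein chondromodulin (0.18), and Scrg1 (0.20), with a median gene at 0.92. S100a6 was nearest to the matrix protein gene Matn2 (0.31), the intermediate filament gene Vim (0.38) and Tiparp (0.39). Matn2 had 207 and 35.8 CPM in SSC KO against 446 and 596 CPM in SSC WT, a low second KO library like that of S100a6. S100a10 was nearest to Cemip2 (0.15), Strap (0.18) and Pdha1 (0.20), S100a11 to Ube2j1 (0.15), Gm7665 (0.16) and Ywhag (0.20), and S100a13 to Use1 (0.15), Dad1 (0.16) and the myosin light chain gene Myl6 (0.17). The faint S100a4 had no gene closer than Fam126a (0.64), Abhd2 (0.69) and Ak3 (0.69). All these profiles share the same 12 libraries and their KO replicate gap, and likeness is a description.

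H3K4me3, the mark of promoters in use, was called within 1 kb of the start of all 7 genes in all 6 libraries, where 49.9% to 53.7% of 27025 annotated genes had such a peak. That share, like those below for H3K4me1 and H3K27ac, is over annotated genes with no filter on RNA level. All 7 members had passed such a filter, so the sets are unlike and nothing is read from the comparison. The authors' peak fold over background was 9.42 to 15.0 at S100b, 12.6 to 17.8 at the shared start of S100a1 and S100a13, 11.9 to 19.6 at S100a6, 12.7 to 19.5 at S100a10 and 11.9 to 16.3 at S100a11. S100a4 had the weakest peak, with folds of 4.30 to 6.62, and 52.5% to 70.0% of the peaks in the same list had a higher one. At S100b the fold was 14.4 in SSC KO and 11.8 in SSC WT, 9.42 in pBCSP KO and 9.90 in pBCSP WT, and 15.0 in BCSP KO and 13.05 in BCSP WT, so the genotypes did not order the same way in the 3 populations. The S100a4 peak was 1633, 1385 and 3075 bases wide in SSC, pBCSP and BCSP of KO and 639, 743 and 853 bases wide in those of WT. Its fold was 4.87 in SSC KO and 4.30 in SSC WT, 5.16 in pBCSP KO and 6.62 in pBCSP WT, and 5.33 in BCSP KO and 6.13 in BCSP WT, so width was higher in KO in all 3 populations and fold in SSC alone. The S100a11 peak was also wider in KO, at 5387, 4980 and 5299 bases in SSC, pBCSP and BCSP of KO and 3883, 3660 and 5079 bases in those of WT. At S100a6 it was slightly wider (4219, 3821 and 3720 bases in KO, 4092, 3810 and 3559 in WT). The other members gave no such order. In KO the peak was narrower at S100b in pBCSP (2005 bases, 2370 in WT), at S100a10 in pBCSP (7603, 8001) and at the shared start in BCSP (2950, 3359). How many of all genes had a wider peak in KO was not counted. The S100a10 peak was the broadest, at 6636 to 8494 bases. With 1 library per group and mark there is no replicate check.

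H3K4me1, typical of enhancers and promoter flanks, was also called near all 7 starts in all 6 libraries, where 41.3% to 60.6% of genes had a peak. Its folds were low, 3.28 to 5.39 over the members, and 9 of the 42 pairs of gene and library remained at a -log10 q of at least 5. At S100b the mark covered 5474 to 6472 bases across most of the gene. At S100a10 the peak within 1 kb ran between 3374 and 138 bases outside the annotated end used as the gene's start. It overlapped the outer end of the broader H3K4me3 peak in each of the 6 groups. Separate H3K4me1 peaks lay over the S100a10 gene body in all 6 libraries.

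H3K27ac, the mark of active promoters and enhancers, was called near the start of some members only. No peak was called within 1 kb of the start of S100b or of S100a4 in any of 12 libraries, and S100a6 had 1, in BCSP WT. S100a10 had a peak in 8 of 12 libraries, S100a11 in 6, and the shared start of S100a1 and S100a13 in 5. With 2000 bases on each side S100a6 also had peaks in pBCSP WT replicate 1 and BCSP KO replicate 2. Over the gene body S100b had 1, in BCSP KO replicate 2. In the first set of libraries, deposited as broad peaks, 4, 2 and 4 of the 7 genes had a peak in SSC, pBCSP and BCSP of KO, and 2, 4 and 5 in those of WT, where 4.03% to 12.8% of all genes had one. In the second set, deposited as narrow peaks, the counts were 0, 2 and 1 in KO and 0, 1 and 0 in WT, with 0.163% to 11.4% of all genes. The lists differ widely in size, from 137 to 8572 peaks, and a peak missing from a short list is not shown to be absent. Only 2 of the 25 pairs of gene and library remained at a -log10 q of at least 5, and 9 with an overlap of at least 500 bases. In the counts of genes and pairs for each mark, a peak at the shared start counts for both S100a1 and S100a13. The 2 genes with a peak in SSC WT of the first set are these, with 1 peak between them.

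**Figure D4:**
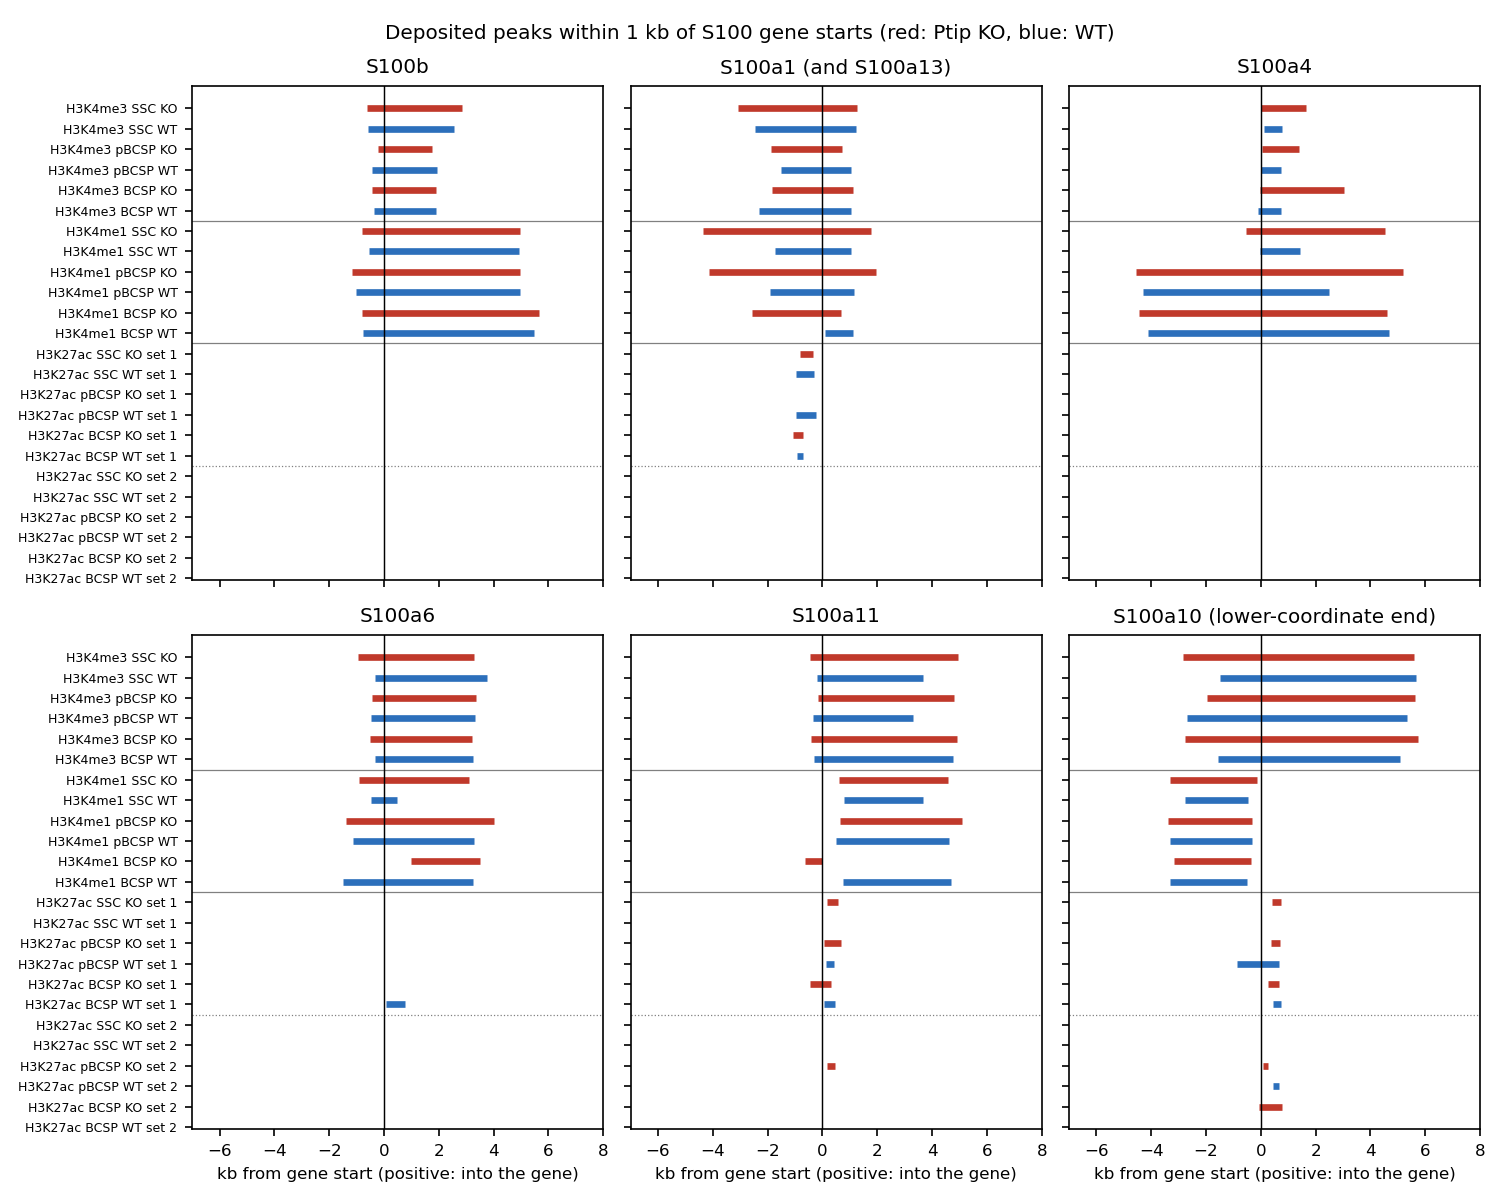
Extent of the deposited peak with the highest fold within 1 kb of each gene start, in kb from the start (x axis), with 1 line per ChIP library, KO (red) above WT (blue) for each population, grouped by mark. H3K4me3 and H3K4me1 bars are present in every line for every gene, and H3K27ac bars are missing from all 12 lines for S100b and S100a4.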

How the data were processed

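RNA and 3 histone marks were profiled in 48 samples, of which 12 RNA libraries and 24 peak lists were used; the 12 input libraries were not used here. The RNA table holds raw read counts per gene as deposited by the authors. Peaks come with a fold over background (a ratio), -log10 p and -log10 q values and a score, all deposited by the authors. Per the submitters' processing notes, the build was GRCm38, and the tools named there are MACS2 2.2.6, SAMtools 1.9, Trim Galore 0.6.6, featureCounts 2.0.1 and Bowtie2 2.3.5.1; the annotation, strand setting, treatment of multiply mapped reads and peak cutoffs are not stated there or in the labels.

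Symbols were paired with 55141 of 55487 IDs. Counts were scaled by TMM, filtered with filterByExpr (17494 genes) and fitted in 1 model with a mean per group over 12 libraries (6 residual degrees of freedom) with edgeR 4.0.16 (quasi-likelihood F test, R 4.3.3), with Benjamini-Hochberg adjustment over all genes and a threshold of 0.05. The fit was also run on simulated counts with known differences. These were drawn independently for each library, with no library set apart, so that run does not bear on the gap between KO replicates. Log2 CPM used a prior of 0.5 counts. Peaks were assigned by an overlap of at least 1 base with the window of 1000 bases on each side of the RefSeq start; S100a10 has no entry there, and the lower-coordinate end of its interval was used. A comparison of levels between genes per kb of exon was planned but could not be made, since no exon lengths were at hand.

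The members and all gene lists were chosen with earlier results of these data known. Named beside them are Paxip1, Anxa1, Anxa2 and the 3 Sox genes, other S100 genes with a mean of at least 1 CPM, partners past the threshold, and for each member the 3 genes nearest by centred log2 CPM. Alternatives were RLE or no scaling, no filter, DESeq2 1.42.0, the replicate number as a block and leaving out each library, and, chosen after seeing the data, the first KO libraries only, pBCSP and BCSP only, and counts summed over populations. All count columns of the table were used, and a floor of 3 counts stands for a count of 0.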

Additional observations from a re-analysis of the deposited data

How the results depend on the processing

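S100b and S100a1 stayed higher and S100a4 and S100a6 lower in KO, on average over populations, under every alternative run. S100a10 also kept its sign, at -0.78 to -0.33 log2 over single omissions, but was -0.0050 with the first KO libraries only. S100a11 kept its sign in 18 of 20 alternatives, within a range of -0.65 to 0.35 log2. The number of called genes was less stable. With no filter on low counts it was 1882 on average, 395, 260 and 337 in SSC, pBCSP and BCSP, 133, 107 and 246 for WT pBCSP minus SSC, BCSP minus pBCSP and BCSP minus SSC, and 50 for a KO effect that differs between populations. DESeq2 gave 1625, then 143, 78 and 98, then 36, 23 and 65, and 2. With the first KO libraries only, 661 genes were called on average, 14 in pBCSP, and 189, 316 and 544 between WT populations; with pBCSP and BCSP only, or with counts summed over populations, 0 were called on average (3684 and 1505 at an unadjusted p under 0.05). Leaving out 1 library gave 0 to 6147 genes on average, 0 to 5908 in SSC, 0 to 2 for WT BCSP minus SSC and 0 to 2082 for the difference between populations, with 6147, 5908 and 2082 all without SSC KO replicate 1. The cause was not tested.

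Replicate numbers are shared between groups in the labels, but same-numbered KO and WT libraries did not deviate together (correlations of 0.015 in SSC, -0.022 in pBCSP and -0.068 in BCSP), whereas same-numbered libraries of 1 genotype did (0.22 to 0.44). With the replicate number as a block 141 genes were called on average, 112 of them shared with the 205, and 2 of the 7 members.

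Signs turned for S100a3 without pBCSP KO replicate 2 (0.03 log2) or BCSP KO replicate 2 (0.12), within a range of -0.86 to 0.12 over single omissions, and with the first KO libraries only for S100a3 (0.35), S100a16 (0.071) and Anxa2 (0.077). At a -log10 q of at least 5, 9 of 42 H3K4me1 and 2 of 25 H3K27ac pairs of member and library were left, and 9 H3K27ac pairs with an overlap of 500 bases.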

Other observations

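S100a8 and S100a9, whose proteins form the calprotectin of neutrophils, were high in a few libraries of both genotypes. S100a8 had 0.762 and 20.9 CPM in SSC KO and 4.03 and 2.39 CPM in SSC WT, 1.51 and 1.09 CPM in pBCSP KO and 16.02 and 15.1 CPM in pBCSP WT, and 0.896 and 0.487 CPM in BCSP KO and 2.22 and 2.36 CPM in BCSP WT. S100a9 was highest in the same 3 libraries, at 18.4 CPM in SSC KO replicate 2 and 9.12 and 6.37 CPM in pBCSP WT. The summed level of 8 neutrophil genes was 18.7 CPM in SSC KO replicate 2 and 30.3 and 30.0 CPM in pBCSP WT, and at most 3.93 CPM in each of the other 9 libraries, while Ly6g, the antigen used to sort neutrophils, was at or below 0.126 CPM throughout. The average KO minus WT difference was -1.18 ± 0.64 log2 for S100a8 (edgeR adjusted p = 0.338, below the WT mean in 5 of 6 KO libraries) and -0.84 ± 0.97 for S100a9 (adjusted p = 0.66, below in 4 of 6). For S100a8 it was -2.46 log2 (adjusted p = 0.0267) without SSC KO replicate 2, -0.85 (adjusted p = 0.0468) without SSC KO replicate 1 and -2.26 (adjusted p = 0.0132) with the first KO libraries only.

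Of 6 erythroid genes 0 passed and all 6 estimates were negative, with sums of 1.58 to 31.9 CPM in KO and 21.8 to 257 CPM in WT. Endothelial genes summed to 0 to 24.7 CPM in KO and 6.97 to 46.8 CPM in WT, adipocyte genes to 0.0554 to 24.3 and 13.3 to 35.2 CPM, leukocyte genes to 11.3 to 33.0 and 7.89 to 22.8 CPM, and skeletal muscle genes to 53.8 to 478 and 40.4 to 639 CPM, each in KO and then in WT, with 0 genes called in these lists.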
